A study of Mus musculus with 17 samples.

Results

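The 10 genes described here encode the contractile apparatus of smooth muscle: the actins *Acta2* and *Actg2*, the myosin genes *Myh11* and *Myl9*, the kinase gene *Mylk*, the actin-binding proteins *Tagln*, *Cnn1* and *Cnn2*, and the tropomyosins *Tpm1* and *Tpm2*. They were chosen by name, with earlier results of these data known. All 10 had a row among the 55450 genes of the bulk table and in each single-cell matrix. Of the 10, 8 reached at least 1 TPM (transcript abundance scaled to transcript length and to the library total) in at least 2 bulk libraries and entered the fit with 15348 genes in all. *Actg2* and *Myh11* did not reach it, and their levels are given without a test.

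The series compared cell lines cultured from FVB/NJ female mice carrying the MMTV-PyMT transgene, in which the mammary tumor virus promoter drives the polyoma middle T oncogene and mammary tumors arise and spread. A line from the primary tumor of the mammary fat pad (MFP) stood beside lines from lung, bone marrow (BM) and metastatic lymph node (LN), each sorted by flow cytometry into CD44low/EpCAMhigh and CD44high/EpCAMhigh cells. Each of the 7 groups had 2 bulk RNA-seq libraries, which the study describes as separate clonal isolates from different mice. Single-cell data came from lung CD44low (lungL), lung CD44high (lungH) and LN CD44high (lymphH) cells, with 1 matrix per line. The lungL and lungH matrices are labelled replicate 1, and lymphH carries no replicate number. Whether a matrix holds 1 or both of the 2 isolates that the study describes is not stated. No treatment set the groups apart, every group carries the same transgene, and all cells had been expanded in culture for about a month before the sort, so no group is a sample of intact tissue.

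In a contracting cell, myosin light chain kinase, the product of *Mylk*, phosphorylates the regulatory light chain encoded by *Myl9*, and myosin then pulls on actin filaments that tropomyosin and calponin line and regulate. Besides smooth muscle and pericytes, activated fibroblasts (myofibroblasts) and mammary myoepithelial cells are known to express part of this set, and *Tpm1* and *Cnn2* are used widely outside muscle. Many of these genes carry a CArG box, to which the serum response factor SRF binds with its cofactors myocardin and the myocardin-related proteins encoded by *Mrtfa* and *Mrtfb*.

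Of the 10 genes, 7 were matched by symbol in the RefSeq promoter table (GRCm38.p6). *Tagln*, *Actg2* and *Myh11* had no entry there. The CArG box, searched in the 250 bases before each listed RefSeq start and identical on both strands, was present in the promoters of *Cnn2* and *Myl9*, and in 1.47% of 32851 promoters of the same length. With at most 1 mismatch, an allowance chosen after the exact matches were seen, it was found for *Acta2*, *Cnn2*, *Myl9* and *Tpm1*, and in 18.6% of promoters. The 6 letters CATTCC, the core of sites for TEAD factors, were found on either strand for *Acta2*, *Mylk* and *Tpm1*, and in 12.6% of promoters. Overlap between the motifs was not examined, and no match says only that the letters are not in this window. The 3 promoters below are shown because *Acta2* had the largest difference of the 8 tested genes between lung CD44low and MFP, while *Cnn2* and *Myl9* held the exact box; capitals mark CArG boxes with at most 1 mismatch, and each run reads 5' to 3' toward the start.
*Acta2*, chr19:34255374-34255623, minus strand, boxes beginning 84 and 34 bases before the start: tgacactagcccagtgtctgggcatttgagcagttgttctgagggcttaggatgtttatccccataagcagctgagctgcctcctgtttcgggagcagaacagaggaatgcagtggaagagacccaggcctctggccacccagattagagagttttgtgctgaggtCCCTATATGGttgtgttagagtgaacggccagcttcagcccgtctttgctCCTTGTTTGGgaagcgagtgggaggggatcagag
*Myl9*, chr2:156775214-156775463, plus strand, the exact box beginning 161 bases before the start and a box with a mismatch 99 bases before it: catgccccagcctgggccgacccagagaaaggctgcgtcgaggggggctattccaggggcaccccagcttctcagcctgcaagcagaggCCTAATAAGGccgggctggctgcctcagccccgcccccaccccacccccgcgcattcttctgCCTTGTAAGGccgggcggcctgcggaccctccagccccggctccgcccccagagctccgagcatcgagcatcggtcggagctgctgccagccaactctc
*Cnn2*, chr10:79988350-79988599, plus strand, the exact box beginning 56 bases before the start: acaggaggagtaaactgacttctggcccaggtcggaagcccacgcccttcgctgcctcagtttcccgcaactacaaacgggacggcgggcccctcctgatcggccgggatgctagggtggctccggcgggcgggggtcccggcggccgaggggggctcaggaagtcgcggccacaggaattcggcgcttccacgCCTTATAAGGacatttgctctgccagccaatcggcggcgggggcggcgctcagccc

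These runs are sequence descriptions, and the data used here did not measure binding at them. *Acta2* lies on chromosome 19 (34241090 to 34255590), *Myl9* on chromosome 2 (156775420 to 156781658) and *Cnn2* on chromosome 10 (79988584 to 79996062) of the mm10 annotation.

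The sort markers went against the labels in part, which bears on every statement about the lung lines. *Epcam*, the surface protein of the gate, was listed at 0 TPM in both lung CD44low libraries and at 0.23 and 0.86 TPM in the lung CD44high libraries, against 315 to 941 TPM in the other 10 libraries. *Cd44* stood between 12.1 and 21.95 TPM in all 4 lung libraries and did not separate the 2 lung groups, while both LN CD44high libraries lay below both LN CD44low libraries and the BM ranges overlapped. The origin of this gap was not tested.

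*Acta2*, *Myl9*, *Mylk*, *Tagln*, *Cnn1* and *Tpm2* were high in lung CD44low libraries and low elsewhere, *Cnn2* and *Tpm1* were also substantial in other lines, and *Actg2* and *Myh11* were near 0 throughout. *Acta2*, the smooth muscle actin, stood at 657 and 711 TPM in the 2 lung CD44low libraries. Its level was 1.36 and 0.56 TPM in lung CD44high and between 0 and 0.82 TPM in the 10 MFP, LN and BM libraries. The lower lung CD44low library was thus 483 times the highest other library. *Actg2*, the enteric smooth muscle actin, was at 0.39 and 0.92 TPM in lung CD44low and reached its highest level, 1.19 TPM, in a BM CD44high library, so its ranges overlapped and no order of groups could be read. Near-identical actin sequences can share reads, and the split between *Acta2*, *Actg2* and the striated actins is uncertain to that degree. In bulk libraries, a change in the share of cells that use a gene and a change in RNA per cell cannot be told apart.

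*Myl9* was at 173 and 178 TPM in lung CD44low libraries and was listed at 0 in both lung CD44high libraries. It was also low but measurable in LN and BM, with 0.92 and 0.46 TPM in LN CD44low, 3.69 and 4.56 in LN CD44high, 5.61 and 4.6 in BM CD44low, and 2.88 and 1.71 in BM CD44high. The MFP libraries held 0 and 0.41 TPM, below every LN and BM library. *Mylk* followed *Acta2*, with 64.2 and 78.8 TPM in lung CD44low and 0.07 to 1.57 TPM in the other 12 libraries. *Myh11*, the smooth muscle myosin heavy chain that marks mature muscle, did not exceed 0.15 TPM in any library. The light chain and its kinase were thus measured in lung CD44low bulk libraries with the smooth muscle heavy chain near 0.

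*Tagln*, which encodes the actin-binding protein SM22, was at 62.4 and 80.2 TPM in lung CD44low, at 0 in both lung CD44high libraries and at 0.07 to 0.65 TPM elsewhere. Exons of *Tagln* overlap 108 bases of *Pcsk7* and a longer stretch of the antisense gene *Gm48529*, both on the opposite strand. The library kit does not mark strand. *Pcsk7* reached at most 22.2 TPM in any library, and *Gm48529* stayed below 1 TPM. The part of reads from these 2 genes in the *Tagln* level was not tested. *Cnn1*, the calponin of differentiated smooth muscle, was at 35.3 and 29.6 TPM in lung CD44low, 2.27 to 6.60 TPM in LN CD44low, LN CD44high and BM CD44low, 0.71 and 1.41 in BM CD44high, 0.53 and 0.15 in lung CD44high and 0.11 and 0.21 in MFP. *Cnn2*, the broadly expressed calponin, had another order. Its level was 849 and 904 TPM in lung CD44low, 288 and 385 in lung CD44high, 73.2 to 150 in the 8 LN and BM libraries, and 4.16 and 6.89 in MFP, with no overlap between those 4 ranges.

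The tropomyosins split in the same way. *Tpm2* was at 40.4 and 36.1 TPM in lung CD44low and at 0 to 0.68 TPM in the other 12 libraries. *Tpm1* was abundant everywhere, with 1067 and 1103 TPM in lung CD44low, 260 and 420 in lung CD44high, and 312 to 946 in the rest. Neighbors in that order did not separate: the LN, BM and MFP ranges of *Tpm1* overlapped one another. Summed over the 10 genes, the contractile set made up 0.295% and 0.312% of all TPM in the lung CD44low libraries and 0.039% to 0.109% in the other 12.

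**Figure D1:**
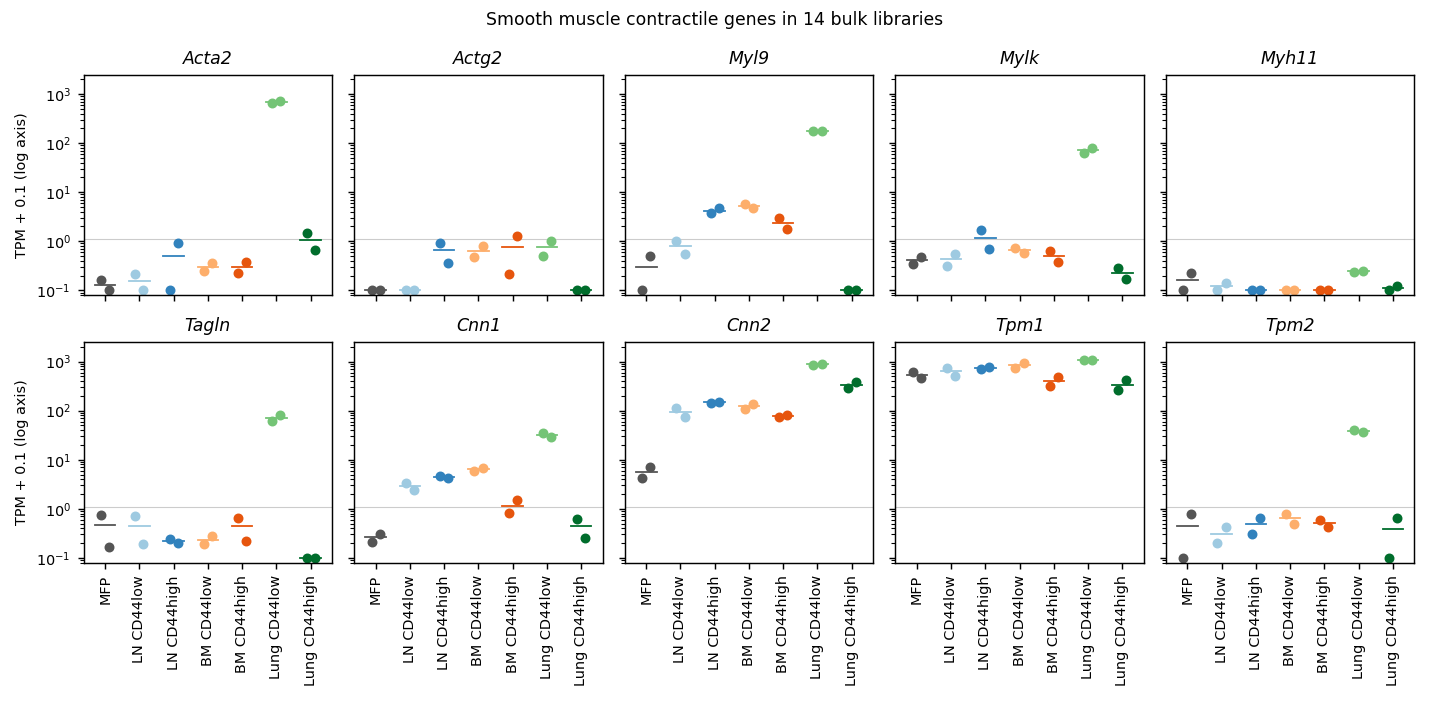
Level of each gene (TPM + 0.1, log axis) in the 14 bulk libraries, 1 point per library and a line at the group mean; the grey line marks 1 TPM. *Acta2*, *Myl9*, *Mylk*, *Tagln*, *Cnn1* and *Tpm2* stand far above all other libraries in lung CD44low, *Cnn2* is lowest in MFP, and *Actg2* and *Myh11* stay near the bottom of the axis.

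Against the primary tumor line, the fit found 7 contractile genes higher in lung CD44low cells. A gene was called when limma's Benjamini-Hochberg adjusted p was under 0.05 and the log2 fold change of TPM + 1 was over 2 in size. The 7 of 8 tested were all but *Tpm1*, and 11.2% of all 15348 genes were called higher in that comparison and 7.62% lower. This count is no support by itself, since *Acta2*, *Mylk*, *Tagln* and *Tpm2* passed the 1 TPM filter only through the lung CD44low libraries. *Acta2* had a log2 difference of 9.38 ± 0.32 (SE, limma adjusted p = 1.44e-08) and *Myl9* of 7.21 ± 0.29 (limma adjusted p = 4.37e-08). *Cnn2*, which passes the filter in every library, was higher by 7.10 ± 0.27 (limma adjusted p = 2.69e-08), and *Cnn1* by 4.85 ± 0.28 (limma adjusted p = 5.12e-07). *Tpm1* differed by 1.02 ± 0.32 (limma adjusted p = 0.0252), short of the fold required. The median over the 8 tested genes was 5.77, against 0 over all genes tested. Because 1 TPM is added to each level, these values understate the change of genes near 0 in MFP.

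In lung CD44high cells, *Cnn2* was called higher than in MFP, by 5.71 ± 0.27 on the log2 scale (limma adjusted p = 3.68e-07), the only call among 8 tested genes where 5.42% of all genes were called higher. *Acta2* differed by 0.90 ± 0.32 (limma adjusted p = 0.0505) and was called with a pseudocount of 0.1, and *Tpm1* by -0.70 ± 0.32 (limma adjusted p = 0.118). *Myl9* and *Tagln*, listed at 0 in both lung CD44high libraries, are given no fold.

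In the LN and BM lines, the calponins and *Myl9* set the pattern. *Cnn2* was called higher than in MFP in all 4 groups, by 3.85 ± 0.27 in LN CD44low, 4.54 ± 0.27 in LN CD44high, 4.26 ± 0.27 in BM CD44low and 3.62 ± 0.27 in BM CD44high (limma adjusted p from 3.49e-06 to 1.31e-05). It was the single call in LN CD44low, where 2.07% of all genes were called higher, and in BM CD44high, where 3.64% were. With a pseudocount of 0.1 in place of 1, *Cnn1* was called as well in LN CD44low, and *Cnn1* and *Myl9* in BM CD44high. *Cnn1* and *Myl9* were called as well in LN CD44high, making 3 of 8 against 2.44% of all genes, and in BM CD44low, making 3 of 8 against 3.99%. *Myl9* differed from MFP by 2.10 ± 0.29 in LN CD44high (limma adjusted p = 0.000783) and by 2.36 ± 0.29 in BM CD44low (limma adjusted p = 0.000372). Its call in LN CD44high was lost without LN CD44high replicate 2 (1.98) or without MFP replicate 1 (1.86). *Acta2*, *Mylk*, *Tagln*, *Tpm1* and *Tpm2* were not called in any LN or BM group against MFP, with log2 differences between -0.47 and 0.64. All 6 comparisons share the 2 MFP libraries, so their *Cnn2* values are not independent of one another. The median of all genes stood at -0.30 in LN CD44high and -0.34 in BM CD44high against MFP and moved to 0.02 and 0.04 when the TPM were scaled by median ratios, and the 8 genes' calls against MFP were the same under that scaling.

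**Figure D2:**
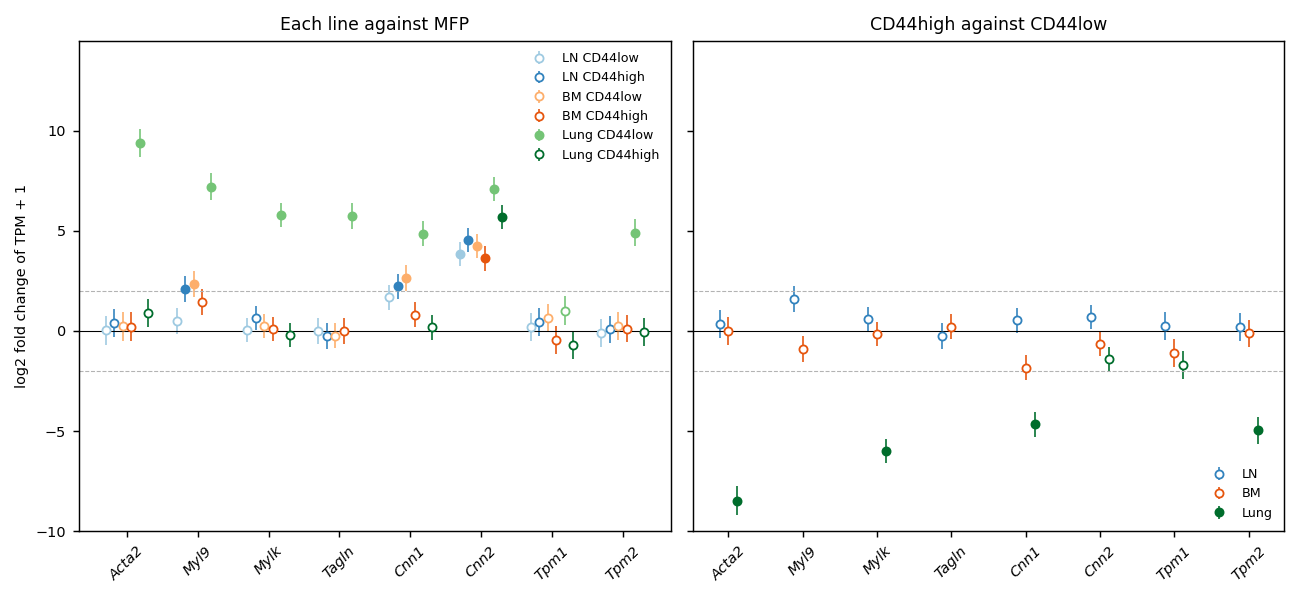
Log2 fold change of TPM + 1 with its 95% interval for the 8 tested genes, each line against MFP on the left and CD44high against CD44low on the right. Filled points passed the limma call, dashed lines mark a log2 change of 2 in size, and *Myl9* and *Tagln* are left out where lung CD44high libraries are listed at 0.

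Between the CD44 groups, contractile genes were called in lung and none was called in LN or BM. Of 8 tested genes, 6 were called lower in lung CD44high than in lung CD44low cells, namely *Acta2*, *Myl9*, *Tagln*, *Mylk*, *Tpm2* and *Cnn1*, where 8.8% of all genes were called lower. For *Acta2*, *Mylk*, *Tagln* and *Tpm2*, which passed the 1 TPM filter only through lung CD44low, a lower level in lung CD44high was built in, so this count is no support by itself. *Acta2* fell by 8.48 ± 0.32 on the log2 scale (limma adjusted p = 3.24e-08), *Mylk* fell by 6.0 ± 0.27 (limma adjusted p = 1.2e-07), *Tpm2* fell by 4.97 ± 0.31 (limma adjusted p = 1.32e-06) and *Cnn1* fell by 4.65 ± 0.28 (limma adjusted p = 1.03e-06). *Cnn2* differed by -1.39 ± 0.27 (limma adjusted p = 0.00351) and *Tpm1* by -1.71 ± 0.32 (limma adjusted p = 0.00271), both under the fold required. *Tpm1* passed the call without lung CD44high replicate 2.

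In LN and in BM, none of the 8 genes was called between CD44high and CD44low cells by limma, where 0.208% and 0.104% of all genes were called in either direction. At an unadjusted p under 0.05 with the same fold, the count was also 0 in both organs. The largest LN difference was that of *Myl9*, 1.61 ± 0.29 (limma adjusted p = 0.0627). The largest in BM was that of *Cnn1*, -1.84 ± 0.28 (limma adjusted p = 0.0481), which missed the fold required. *Acta2*, *Mylk*, *Tagln* and *Tpm2* were too close to 0 in LN and BM for a difference between the CD44 groups to be called there. *Myl9* libraries did not overlap in LN, with 0.92 and 0.46 TPM in CD44low and 3.69 and 4.56 TPM in CD44high cells. Those of *Cnn1*, *Cnn2* and *Mylk* did not overlap there either. *Cnn1* libraries did not overlap in BM, with 5.92 and 6.60 TPM in CD44low and 0.71 and 1.41 TPM in CD44high cells. The BM libraries of *Cnn2*, *Tpm1* and *Myl9* were also apart. The share of all genes that separate in this way was not counted, so nothing is drawn from it.

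The difference between organs was tested directly as an interaction. The lung CD44 difference lay below that of LN for all 8 tested genes and was called for 7 of them, where 7% of all genes were called lower. *Tpm1*, with a gap of -1.96 ± 0.45 (limma adjusted p = 0.0131), missed the fold required, and it was called with median-ratio scaling and in 3 of the fits that left out a library. As *Acta2*, *Mylk*, *Tagln* and *Tpm2* entered the fit only through lung CD44low, the counts of both interactions are no support by themselves. For *Acta2* the gap between the 2 differences was -8.84 ± 0.45 (limma adjusted p = 6.42e-07), and for *Cnn2* it was -2.08 ± 0.38 (limma adjusted p = 0.00402). The *Cnn2* call was lost without LN CD44low replicate 2 (-1.77) or without lung CD44high replicate 1 (-1.87). Against BM, 6 of 8 genes were called, all but *Cnn2* and *Tpm1*, where 5.89% of all genes were called lower. *Cnn1* had the smallest called gap there, -2.82 ± 0.40 (limma adjusted p = 0.000803). Both tests share the 4 lung libraries.

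Taking the 2 lung groups together against the 4 LN and BM groups, 5 of 8 genes were called higher, with 7.13% of all genes called higher. This count is no support by itself, as *Acta2*, *Tagln*, *Mylk* and *Tpm2* entered the fit only through lung CD44low. *Acta2* (4.92 ± 0.19, limma adjusted p = 2.98e-08), *Tagln*, *Mylk* and *Tpm2* did not exceed 1.36 TPM in lung CD44high. For *Cnn2* all 4 lung libraries lay above all 8 LN and BM libraries, with a log2 difference of 2.34 ± 0.17 (limma adjusted p = 1.7e-06). *Cnn1* differed by 0.68 ± 0.17 (limma adjusted p = 0.00653) and *Tpm1* by -0.05 ± 0.19 (limma adjusted p = 0.851).

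Within the gene families, nonmuscle forms held most of the actin and transgelin TPM in lung CD44low cells, while *Cnn2* and *Tpm1* held most of the calponin and tropomyosin TPM. The cytoplasmic actin *Actb* was at 4378 and 3994 TPM in lung CD44low and *Actg1* at 2183 and 2322 TPM, so that *Acta2* made up 9.10% and 10.1% of the actin TPM there and at most 0.0234% in any other library. Neither *Actb* nor *Actg1* was called in any of the comparisons of lung CD44low cells with MFP or of the 2 lung groups. *Cnn2* took 78.4% and 78.6% of the calponin TPM in lung CD44low and 54.6% and 52.3% in lung CD44high. *Cnn3*, the other nonmuscle calponin, took 98.8% and 97.7% in MFP and 65.5% to 87.9% in LN and BM. The *Cnn3* level itself was not called lower in lung CD44low cells than in MFP (-0.64 ± 0.42, limma adjusted p = 0.245).

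Among tropomyosins, *Tpm1* took 66.5% and 63.2% of the TPM in lung CD44low and 26.1% to 57.2% in the other libraries. *Tpm2* took 2.52% and 2.07% in lung CD44low. The cytoskeletal form *Tpm3* took 10.5% and 11.4% in lung CD44low, 26.6% and 21.2% in lung CD44high and 29.1% to 50.6% elsewhere. *Tagln2*, the nonmuscle relative of *Tagln*, was at 415 and 416 TPM in lung CD44low but at 16.4 and 19.7 TPM in lung CD44high, a log2 difference of -4.46 ± 0.34 (limma adjusted p = 6.06e-06). *Tagln* was 13.1% and 16.2% of the transgelin TPM in lung CD44low. Of the myosin heavy chain TPM, nonmuscle *Myh9* held 83.5% and 90.2% in lung CD44low and 99.4% and 98.5% in lung CD44high, with 140 and 206 TPM in CD44low and 745 and 290 TPM in CD44high cells. Of 14 nonmuscle counterparts, 11 were tested, and *Myh9* (3.69 ± 0.94, limma adjusted p = 0.00965) was called higher and *Myh14* lower in lung CD44low cells than in MFP, shares near the 11.2% and 7.62% of all genes.

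**Figure D3:**
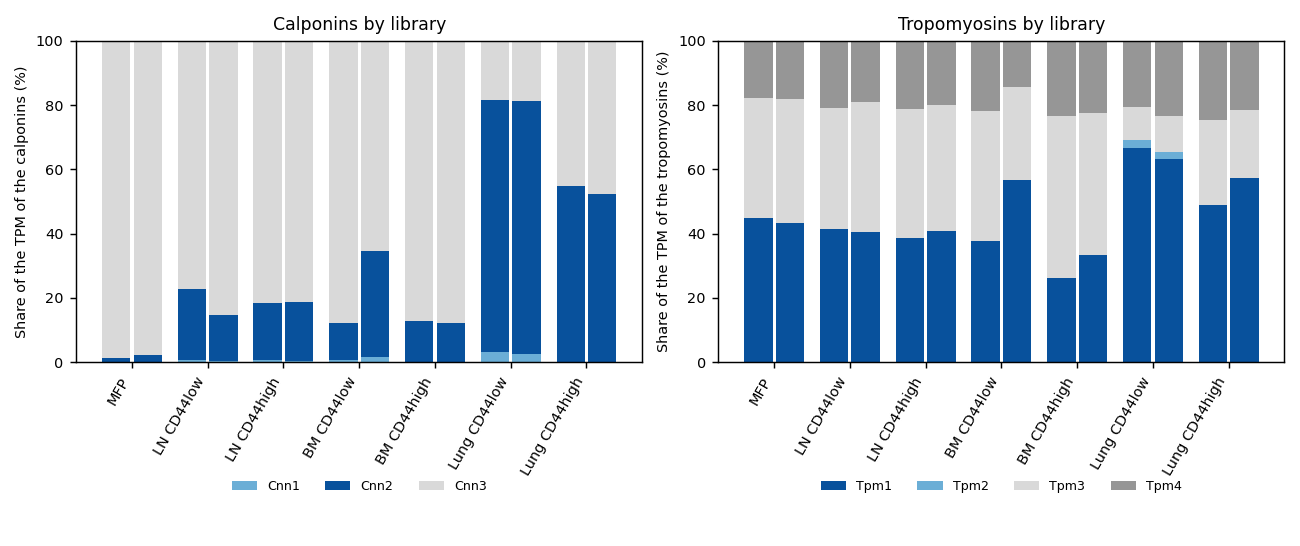
Share of the summed TPM of the calponins (left) and tropomyosins (right) held by each family member, 1 bar per bulk library, 2 bars per group. *Cnn2* holds a larger share than *Cnn3* in the 4 lung libraries, and *Tpm3* is smallest in lung CD44low, at 10.5% and 11.4%.

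Among 12 genes of SRF control, cofactor and LIM-domain genes were called in lung CD44low cells and *Srf* was not. *Srf* was at 4.07 and 5.61 TPM in lung CD44low and 3.27 and 4.45 in MFP, and was not called (0.26 ± 0.58, limma adjusted p = 0.757). *Mrtfa*, whose product carries the actin signal to SRF, was at 84.7 and 94.8 TPM in lung CD44low against 10.5 to 32.5 TPM in the other 12 libraries. It was higher than in MFP by 2.48 ± 0.42 (limma adjusted p = 0.00109) and fell by 2.23 ± 0.42 in lung CD44high (limma adjusted p = 0.00316). *Mrtfb* was highest in lung CD44high, at 35.7 and 23.9 TPM, and was not called in either comparison. *Myocd*, which encodes myocardin, did not exceed 0.01 TPM in any library. Of 11 tested genes on this list, 6 were called higher in lung CD44low than in MFP and 0 lower, beside 11.2% and 7.62% of all genes, with a median of 2.48 against 0 over all genes. One of the 6, *Tgfb1i1*, passed the 1 TPM filter only through lung CD44low, so the count and median are no support by themselves. *Fhl1* was at 982 and 1599 TPM in lung CD44low, 47.1 and 98.7 in lung CD44high and at most 4.28 elsewhere. *Fhl2* was at 212 and 245 TPM in lung CD44low and 4.31 to 37.0 TPM elsewhere. *Tgfb1i1*, a coactivator also called Hic-5, was at 50.7 and 41.4 TPM in lung CD44low and at most 0.81 TPM elsewhere. *Csrp1* and *Csrp2* were called lower in lung CD44high than in lung CD44low, by -3.94 ± 0.56 and -3.33 ± 0.42 (limma adjusted p = 0.000516 and 0.000247).

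Other smooth muscle genes did not move as one. Of 20 on the list, 14 were tested, and 4 were called higher and 0 lower in lung CD44low than in MFP, beside 11.2% and 7.62% of all genes, with a median of 1.58. In lung CD44high against lung CD44low, 6 of the 14 were called lower, beside 8.8% of all genes, and 0 higher. *Cald1*, the actin-binding caldesmon, was at 3447 and 3401 TPM in lung CD44low, 589 and 690 in lung CD44high and 112 to 460 elsewhere. *Itga1*, a collagen-binding integrin subunit, was at 42.4 and 61.6 TPM in lung CD44low and *Nexn*, an actin filament protein, at 33.2 and 26.4 TPM. *Ppp1r12b*, a subunit of myosin phosphatase, was called lower in lung CD44high than in CD44low, by -2.57 ± 0.36 (limma adjusted p = 0.000454). *Cacna1c*, a calcium channel subunit, was at 2.25 and 3.20 TPM in lung CD44low and 6.33 and 2.26 TPM in lung CD44high. *Smtn*, smoothelin, was called lower in lung than in LN and BM (-2.20 ± 0.20, limma adjusted p = 1.18e-05) and lower in lung CD44high than in lung CD44low. It was at 16.0 and 22.02 TPM in lung CD44low, 5.20 and 1.91 in lung CD44high and 30.98 to 72.3 elsewhere. *Des*, the muscle intermediate filament, was at 0.21 and 0.26 TPM in lung CD44low, and *Lmod1* at 2.83 and 2.49 TPM.

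Genes of stress fibers and focal adhesions, the structures through which contractile filaments hold the matrix, were called higher for 6 of 16 and lower for 0 in lung CD44low against MFP, beside 11.2% and 7.62% of all genes (median 1.31). *Zyx* was the leading one, at 1905 and 2333 TPM in lung CD44low, 141 and 141 in lung CD44high and at most 163 elsewhere. *Actn1* (2.97 ± 0.78, limma adjusted p = 0.0112) and *Palld* (3.77 ± 0.51, limma adjusted p = 0.000253) were called higher in lung CD44low than in MFP and lower in lung CD44high than in lung CD44low. *Lima1* and *Rhob* were called higher in lung than in LN and BM, by 3.42 ± 0.18 and 2.27 ± 0.41 (limma adjusted p = 2.54e-07 and 0.00092).

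Markers of other cell types moved with the contractile genes. All 11 tested fibroblast markers of 12 were called higher in lung CD44low than in MFP, beside 11.2% of all genes, with *Fap* at 0. *Lum*, *Fbln1*, *Thy1*, *Col1a2* and *Col3a1* passed the 1 TPM filter only through lung CD44low, so the count is no support by itself. Their summed level was 5960 and 6520 TPM in lung CD44low, 1840 to 2400 in lung CD44high, 305 to 807 in LN and BM and 15.1 to 34.8 in MFP. *Dcn* alone gave 4091 and 4315 TPM, followed, by the mean of the lung CD44low libraries, by *Vim*, *Lum* and *Col1a1*. Epithelial markers summed to 2.43 and 2.61 TPM in lung CD44low, 16.2 to 87.7 in lung CD44high and 2270 to 8370 in the other lines, and *Krt8*, *Cdh1* and *Epcam* were among 8 of 12 at 0 in both lung CD44low libraries. Their part in the contractile levels was not tested.

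Mural markers were uneven. Of 12 markers of smooth muscle and pericytes, *Myocd* and *Heyl* were at 0 in both lung CD44low libraries, *Myh11*, *Abcc9*, *Kcnj8* and *Notch3* did not exceed 0.25 TPM there, while *Rgs5* was at 2.24 and 2.87 TPM there and at most 0.08 TPM elsewhere. *Cspg4* was at 0.62 and 0.87 TPM in lung CD44low and at most 0.18 TPM elsewhere, and was not tested. *Rgs5* passed the 1 TPM filter only through lung CD44low, so a higher level there was built in. *Lmod1* differed from MFP by 1.48 ± 0.24 (limma adjusted p = 0.000873), under the fold required. The 11 markers outside the contractile set summed to 54.8 and 87.5 TPM in lung CD44low, 2.38 to 14.7 in lung CD44high and MFP and 29.7 to 127 in LN and BM. Of the 5 tested mural markers, *Pdgfrb*, at 47.3 and 79.4 TPM and also on the fibroblast list, was called higher in lung CD44low than in MFP, beside 11.2% of all genes, and it was also called higher than MFP in LN CD44high, both BM groups and lung CD44high. *Mcam* was at 1.55 and 1.32 TPM in lung CD44low and 17.4 to 122 TPM in LN and BM, and was called lower in lung than in LN and BM (-4.40 ± 0.31, limma adjusted p = 1.77e-06). Myoepithelial markers were mixed. *Krt14* was at 0 in all 4 lung libraries and 594 and 655 TPM in MFP, and *Krt5* did not exceed 0.06 TPM. *Igfbp2*, at 39.8 and 58.6 TPM, was called higher in lung CD44low than in MFP (5.53 ± 0.32, limma adjusted p = 4.71e-07) and held most of the 41.6 to 60.7 TPM of the 8 markers outside the contractile set. *Trp63* was at 1.65 and 1.8 TPM in lung CD44low and 4.61 and 2.65 TPM in lung CD44high. *Oxtr*, the oxytocin receptor, was at 33.5 and 49.5 TPM in lung CD44high against 0.05 and 0.09 TPM in lung CD44low, and was called higher in lung CD44high (5.29 ± 0.20, limma adjusted p = 2.89e-08). It passed the 1 TPM filter only through lung CD44high, so a higher level there was built in. Of 8 tested genes on the myoepithelial list, 4 were called higher in lung CD44low than in MFP and 1 lower, beside 11.2% and 7.62% of all genes, and 3 of the 4 were the contractile genes *Acta2*, *Mylk* and *Cnn1*. As *Acta2* and *Mylk* passed the 1 TPM filter only through lung CD44low, this count is no support by itself. Endothelial markers summed to at most 0.21 TPM in any group. Macrophage markers summed to 45.8 and 49.3 TPM in lung CD44low, within the 21.9 to 268 TPM of the others, and *Adgre1* was at 0 throughout. *Lyz2* on that list was at 35.2 and 34.8 TPM in lung CD44low, 6.15 and 18.5 in lung CD44high and at most 4.28 elsewhere, and its part in the contractile levels was not tested. Markers of striated muscle summed to 0.28 and 0.31 TPM in lung CD44low, 0.19 to 0.21 in lung CD44high and 5.93 to 119 in MFP, LN and BM, there mostly *Tnnt2*. Cycling markers summed to 36.0 and 36.9 TPM in lung CD44low and 3.71 to 55.2 TPM in lung CD44high, against 474 to 4920 TPM in the LN, BM and MFP libraries.

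The genes outside the set with the pattern most like that of *Acta2* were *Nsg1*, *Fam198b*, *Pir*, *Mical1* and *Sema3a*, by the Pearson coefficient of log2(TPM + 1) over 14 libraries. *Nsg1*, the closest, was at 249 and 274 TPM in lung CD44low and at most 0.72 TPM elsewhere, and *Fam198b* was at 393 and 508 TPM there. For the mean of the 8 tested genes, each standardised, the closest were *Hoxa3*, *Plcb4*, *Ms4a4d*, *Dact3* and *Smpd5*. *Ms4a4d* was at 135 and 129 TPM in lung CD44low and up to 1.90 TPM elsewhere. *Dact3* reached only 1.31 and 1.22 TPM. Such likeness rests on the 2 lung CD44low libraries against the other 12 and is a description only.

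The single-cell libraries showed the contractile genes cell by cell. The stated filter of over 250 detected genes and under 10% mitochondrial counts kept 348 of 2808 columns in lungL, 1236 of 3623 in lungH and 2562 of 3297 in lymphH, with 2220759, 2210623 and 5287425 counts in the kept cells. Cells were numbered without barcode sequences, so shared barcodes could not be counted, but 0 columns were identical between libraries. Depth was uneven, with a median of 4011 counts per cell in lungL against 557 in lungH and 585 in lymphH. Levels are therefore given as counts per 10000 with exact Poisson 95% intervals, which cover counting error only, and there is no test between libraries since each group had 1.

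*Acta2* gave 45.6 counts per 10000 in lungL (44.7 to 46.4), from 10116 counts in 300 of 348 cells. The lungH library held 13 *Acta2* counts, 0.0588 per 10000 (0.0313 to 0.101), and the lymphH library held 0 counts, where 3 counts would be 0.00567 per 10000 and the exact interval reaches 0.00698. The lungL level was 775 times that of lungH (453 to 1460) and at least 8030-fold higher than that of lymphH at 3 counts. *Tagln* gave 12.3 per 10000 in lungL (11.8 to 12.8), with 2 counts in lungH and 7 in lymphH. *Myl9* gave 6.81 (6.47 to 7.17), *Mylk* 2.26 (2.07 to 2.47), *Cnn1* 1.83 (1.65 to 2.01) and *Tpm2* 1.0 (0.872 to 1.14). For these 4 genes the other libraries held at most 19 counts, and that was *Cnn1* in lymphH. The order of these levels is not set per transcript length, because the kit reads the 3' end of each message.

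*Actg2* and *Myh11*, which failed the bulk filter, were both seen in lungL cells. *Actg2* gave 611 counts there, 2.75 per 10000 (2.54 to 2.98) in 73 cells, with 0 counts in lungH and 1 in lymphH. *Myh11* gave 56 counts, 0.252 per 10000 (0.19 to 0.327) in 20 cells, with 0 counts in both other libraries. *Acta2* thus outnumbered *Actg2* by 45.6 to 2.75 per 10000 in single cells and by 657 to 0.39 and 711 to 0.92 TPM in bulk. The 2 assays used other chemistries, quantifiers and cultures, and their part in this gap was not tested.

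*Cnn2* and *Tpm1* were present in all 3 libraries, as in bulk. *Cnn2* gave 17.3 per 10000 in lungL (16.7 to 17.8), 2.74 in lungH (2.52 to 2.96) and 2.14 in lymphH (2.02 to 2.27), so that lungL stood 6.31 times above lungH (5.79 to 6.89) and 8.07 times above lymphH (7.55 to 8.63). *Tpm1* gave 19.2 (18.6 to 19.8), 6.08 (5.76 to 6.42) and 5.38 (5.18 to 5.58). No difference between lungH and lymphH is drawn from these single libraries. In bulk, *Tpm1* was lower in both lung CD44high libraries than in both LN CD44high libraries. Of the nonmuscle forms, *Tpm3* did not follow, with 3.85 per 10000 in lungL, 2.88 in lungH and 5.24 in lymphH.

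**Figure D4:**
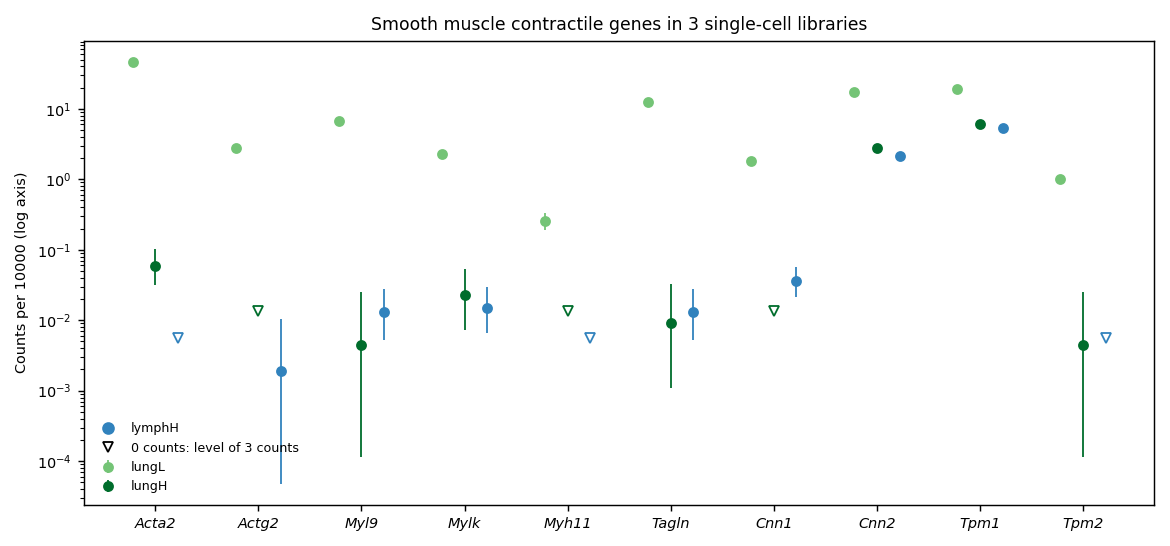
Counts per 10000 (log axis) of each gene summed over the kept cells of the 3 single-cell libraries, with exact Poisson 95% intervals. Open triangles mark 0 counts and stand at the level of 3 counts. The lungL point is the highest for every gene, and only *Cnn2* and *Tpm1* exceed 1 per 10000 in lungH and lymphH.

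Detection varied among lungL cells. After each cell was thinned to 1000 counts, which kept 238 lungL, 222 lungH and 306 lymphH cells, *Acta2* was detected in 70.2% of lungL cells (63.9 to 75.9, exact binomial), against 86.2% before thinning. *Tagln* was detected in 43.3% of thinned lungL cells (62.1% unthinned), *Myl9* in 37.4% (49.4%), *Mylk* in 18.5% (35.9%) and *Actg2* in 12.2% (21%). The same 5 genes were detected in at most 0.901% of thinned lungH and lymphH cells. Of the 8 genes apart from *Cnn2* and *Tpm1*, 3 or more were detected in 38.7% of lungL cells and none in 20.6%. In lungH and lymphH, none was detected in 98.6% and 99.3% of thinned cells. The 2460 lungL columns that the filter left out, with a median of 299 counts, held *Acta2* at 62.6 per 10000 (60.9 to 64.4), above the level of the kept cells. The part of free RNA in the lungL detections was not tested.

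In the 206 lungL cells with at least 2000 counts, thinned to that number, the *Acta2* count ran from 0 at the 10th percentile through a median of 4 to 20.5 at the 90th percentile and 60 at the highest. Its variance was 13.8 times its mean, the largest such ratio of the 10 genes, against 2.69 for *Cnn2*. *Actg2* was held by fewer cells: the 10% of cells with the most *Actg2* held 88.5% of its counts, beside 40.9% for *Acta2*. Across these cells of 1 library, *Acta2* rose with *Tagln* (Spearman's rho 0.746), *Tpm1* (0.628), *Myl9* (0.617) and *Cnn2* (0.594), values that describe cells and are no test. The 206 cells include 38 of low contractile level described next, and over the 168 without them, a choice made after the clusters were seen, the values were 0.682, 0.583, 0.518 and 0.396. *Tpm2* and *Myh11* were too sparse for such a reading.

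Clustering of all 4146 kept cells separated lungL cells of high and low contractile level. *Acta2* and *Tpm2* were among the 2000 variable genes used for it and the other 8 were not, but all were measured in the cells clustered, so these values describe the clusters and test nothing. At the main resolution, 143 lungL cells with a median of 11601 counts formed a cluster (0) with *Acta2* as its leading gene, and 133 shallower lungL cells, median 749 counts, formed another (2) led by *Col1a1*. The summed level of the 10 genes was 132 per 10000 (130 to 134) in the first and 104 (99.3 to 109) in the second, and *Acta2* gave 54.3 and 54.2.

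A further 38 lungL cells, 10.9% of the library, fell among 214 lungH cells in a cluster (1) that *Prl2c3* led. All 38 had at least 2000 counts, with a median of 9751. Their summed level was 7.86 per 10000 (6.97 to 8.84), beside 9.41 (8.95 to 9.89) in the lungH cells of the cluster. *Acta2* gave 1.96 per 10000 in these 38 cells against 0.0547 in the lungH cells, and *Tagln* 0.225 against 0.0122, with 0 for *Actg2* and *Myh11*. After thinning to 1000 counts, *Acta2* was detected in 18.4% of these 38 cells, against 82.4% of 142 cells in cluster 0 and 76.5% of 51 in cluster 2. *Tpm1* kept 5.14 per 10000, near the 6.48 of the lungH cells, whereas *Cnn2* gave 0.253, below the 2.82 of the lungH cells. *Col1a2*, the collagen gene of fibroblasts, gave 0.14 per 10000 in these 38 cells, 15.1 in cluster 0 and 38.3 in cluster 2, while *Vim* gave 29.4, 19.5 and 18.1. *Cd44* gave 12.8, 7.75 and 6.95 per 10000 in the same order, against 4.9 in the lungH cells of cluster 1. The other 34 lungL cells, median 548 counts, lay in clusters of the other 2 libraries, with a summed level of 64.1 per 10000 (54.4 to 75.1).

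**Figure D5:**
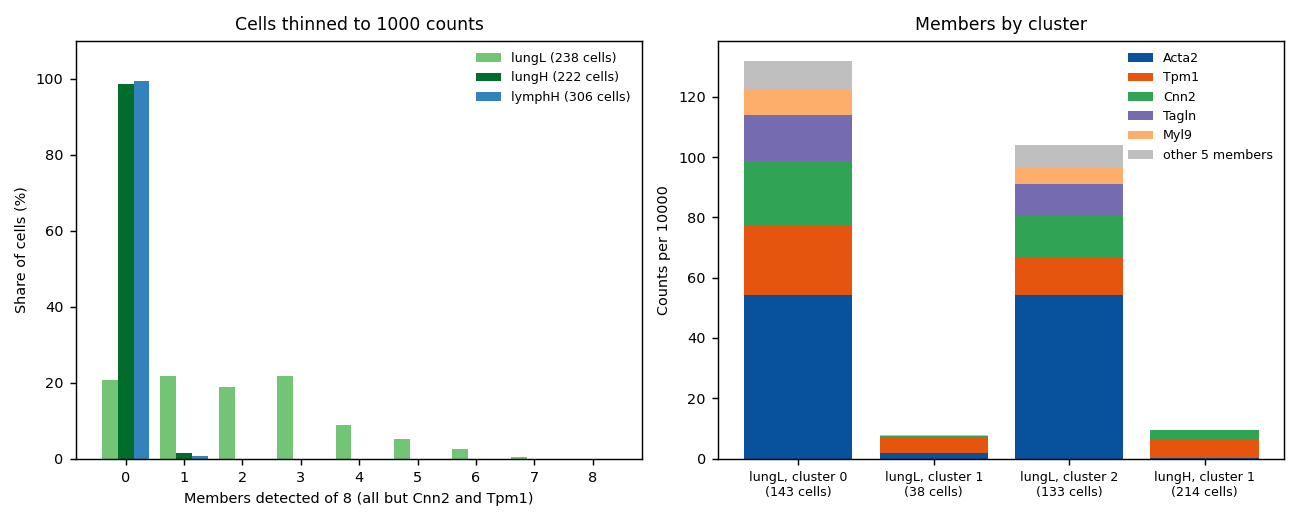
Left, share of thinned cells (1000 counts each) in which 0 to 8 of the 8 genes other than *Cnn2* and *Tpm1* were detected; right, counts per 10000 of the 10 genes in lungL cells by cluster and in the lungH cells of cluster 1. The lungL cells spread from 0 to 7 genes, and the 38 lungL cells of cluster 1 stand at 7.86 per 10000 against 132 and 104 in clusters 0 and 2.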

How the data were processed

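Bulk RNA-seq of 14 libraries (7 groups of 2) and single-cell RNA-seq of 3 lines was analysed. Per the study's methods, the authors made SMART-seq2 libraries, used STAR and RSEM with mm10 and the GENCODE v21 annotation, and the deposited bulk table holds TPM, so the read depth behind each level is not known here. The deposited single-cell counts came from a droplet 3' kit, quantified with kallisto, with 1 matrix per line, of which lungL and lungH are labelled replicate 1. Whether a matrix holds 1 or both of the 2 clonal isolates the study describes is not stated in the sources used here. Whether molecular identifiers were collapsed is not stated there either. GENCODE ids and symbols were paired through the single-cell row names and the mouse annotation vM21.

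The 10 genes, the gene lists and the tests were chosen with earlier results of these data known. The 15348 genes that reached 1 TPM in 2 or more of the 14 libraries were tested on log2(TPM + 1) with limma 3.58.1 in R 4.3.3, 7 group means, a mean-variance trend and Benjamini-Hochberg adjustment, in 12 comparisons. The study's own exact test on counts was not used because the deposited table holds TPM. Genes outside the set were named by a fixed rule: SRF, its cofactors and the nonmuscle counterparts always, and from each other list up to 4 with the largest log2 change among those called in lung against LN and BM or in the 2 lung groups. One gene that this rule names is not reported here. Standard errors and p-values measure the spread between clonal isolates. The fit was tested on simulated data.

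Single cells were summed with scanpy 1.11.5, with Leiden clusters from 2000 variable genes, 20 components, 15 neighbors and resolution 0.8. Scrublet marked 0, 1 and 4 doublets, too few to have worked, so doublets were not removed. The kept numbers of cells differ from those the study gives for the same filter. Alternatives were another pseudocount, filters, scaling, a replicate block, other calls, other groups in the fit, each library left out in turn, other cell filters and other resolutions. Limiting cells to at least 2000 counts, thinning and the CArG mismatch were chosen after the data were seen. Replicate numbers did not pair the samples.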

Additional observations from a re-analysis of the deposited data

Results flagged for a closer look

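The lung CD44 difference was called apart from that of LN for 7 contractile genes and from that of BM for 6, by the limma interaction test, where 7% and 5.89% of all genes were called lower. *Acta2*, *Mylk*, *Tagln* and *Tpm2* passed the 1 TPM filter only through lung CD44low, so these counts are no support by themselves. Against LN, the gap on the log2(TPM + 1) scale was -8.84 for *Acta2*, -6.60 for *Mylk*, -5.19 for *Cnn1*, -5.15 for *Tpm2* and -2.08 for *Cnn2*. Against BM, it was -8.47 for *Acta2*, -5.85 for *Mylk*, -4.85 for *Tpm2* and -2.82 for *Cnn1*. *Tagln* and *Myl9*, listed at 0 in both lung CD44high libraries, are given by the limma adjusted p alone: 5.69e-06 and 3.5e-07 against LN, and 3.42e-06 and 3.19e-06 against BM. For each of these 7 genes both lung CD44low libraries lay above both lung CD44high libraries. The same held for *Tpm1*, which was called in neither interaction. The share of all genes that separate in this way was not counted, so the separation is no support by itself. Both tests use the same 4 lung libraries, whose *Epcam* RNA level went against the EpCAMhigh gate.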

How the results depend on the processing

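The 40 called fold changes kept their direction under 8 other settings of the fit and with each of 14 libraries left out, where 556 omissions kept the call and 4 lost it. With a pseudocount of 0.1, the count of contractile genes called against MFP was 2 in LN CD44low (*Cnn1* gained), 3 in BM CD44high (*Cnn1* and *Myl9*) and 2 in lung CD44high (*Acta2*). With no fold threshold, it was 2 in LN CD44low and 2 in BM CD44high against MFP, and 1 between the BM groups. *Tpm1* was then also called in lung CD44low against MFP and in the lung gap to LN. *Cnn2* and *Tpm1* were also called between the lung groups, and *Cnn1* and *Myl9* in lung against LN and BM. Leaving out 1 library at a time gave 1 to 1 calls in LN CD44low, 2 to 3 in LN CD44high, 3 to 3 in BM CD44low, 1 to 1 in BM CD44high, 7 to 7 in lung CD44low and 1 to 1 in lung CD44high against MFP. Between CD44 groups it gave 0 to 0 in LN, 0 to 0 in BM and 6 to 7 in lung, then 6 to 8 for the lung gap to LN, 6 to 6 for that to BM and 5 to 5 for lung against LN and BM. Where a group was left with 1 library, that library was assumed to vary like the others. The replicate block, with correlations of same-numbered samples from -0.19 to 0.17, left each of the 12 counts as it was (7 calls for lung CD44low against MFP, 6 for the lung CD44 groups). Median-ratio scaling changed no count by over 1.5 times, but moved the split of all genes called higher and lower in BM CD44high against MFP from 558 and 619 to 730 and 395, in LN CD44high from 375 and 565 to 511 and 361, between the LN groups from 18 and 14 to 27 and 12, and in lung against LN and BM from 1095 and 851 to 864 and 1030. The summed single-cell level moved outside its counting interval to 105 in lungL, 7.77 in lungH and 6.43 in lymphH per 10000 as a mean of per-cell values, to 9.36 in lungH and 8.03 in lymphH with over 500 genes, to 8.22 in lungH with all barcodes, and to 9.47 in lungH and 8.04 in lymphH in cells with at least 2000 counts. Among clusters that lungL cells led, resolution 0.4 gave 1, at 129, as both lowest and highest, with 38 lungL cells still among lungH cells at 9.13. At resolution 1.2 the lowest of 3 was 7.74, in a cluster of 39 lungL and 2 lungH cells. Low TPM and 2 libraries per group limit what small differences can show.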
